A study of Mus musculus with 4 samples.

Results

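Gip, Cck, Gast, Gcg and Nts, 5 gut peptide hormone genes chosen by name for what they encode, were followed in acinar-derived cells of the injured mouse pancreas, and all 5 were among the 32288 features counted. Gip encodes glucose-dependent insulinotropic polypeptide, Cck cholecystokinin, Gast gastrin, Gcg proglucagon and Nts neurotensin. The cells came from 4 mice of genotype Ptf1aCre-ERTM;ROSAYFP/+, backcrossed into CD-1 and 10 weeks old when injury began. Tamoxifen by gavage switched on a yellow fluorescent protein (EYFP) through a Cre driven from the acinar gene Ptf1a, so that acinar cells and their descendants stayed marked. Caerulein was then injected into the peritoneum for 2 weeks in 2 mice and for 4 weeks in the other 2. Sorted EYFP-positive cells were profiled by droplet RNA sequencing, and no uninjured pancreas was analysed here. All 4 mice therefore shared the tamoxifen, the reporter and the injury, and the groups differed in its duration.

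Gip and the GLP-1 cut from proglucagon are incretins, gut hormones that raise insulin secretion after a meal. Gip is made by K cells of the upper intestine. Proglucagon is cut to glucagon by the convertase Pcsk2 in islet alpha cells and to GLP-1 by Pcsk1 in intestinal L cells. Gastrin, from antral G cells, drives gastric acid through its receptor Cckbr, and cholecystokinin, from intestinal I cells, drives acinar enzyme secretion through Cckar. Neurotensin is made by N cells of the lower intestine. Of the 5, the normal adult pancreas is known for Gcg, in its alpha cells. Caerulein, the injuring agent, is itself a cholecystokinin analogue that acts on Cckar.

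Gastrin and cholecystokinin end in the same amidated tetrapeptide, Trp-Met-Asp-Phe, which both receptors read. The stretch of each coding sequence that holds it is shown because the pair had their highest mean levels in different subtypes. These were ECL cells for Gast and Ppy+ cells for Cck, and a few cells produced both. Each run is 60 bases, read 5′ to 3′ from the GENCODE M21 transcripts (Gast-201, coding bases 241 to 300 of 303, and Cck-201, coding bases 274 to 333 of 345). Capitals mark the 4 codons of the tetrapeptide, which were located in frame.
Gast: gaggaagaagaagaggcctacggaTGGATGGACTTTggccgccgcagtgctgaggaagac
Cck: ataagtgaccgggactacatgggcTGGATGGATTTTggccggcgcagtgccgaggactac
Of the 12 bases in capitals, 11 were the same in both genes.

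The 250 bases before the start are shown for Gip and Gast, which often shared a cell, and for Gcg, which in Ppy+ cells did not share one with either. They are RefSeq promoters of build GRCm38.p6 on the gene's strand, at chr11:96024295-96024544 (plus strand) for Gip, chr11:100334157-100334406 (plus) for Gast and chr2:62483654-62483903 (minus) for Gcg. Capitals mark GATA, the core of GATA factor motifs, and TAAT, the core read by many homeodomain factors, each on either strand (TATC and ATTA). In Gcg, 1 TAAT and 1 TATC overlap.
Gip: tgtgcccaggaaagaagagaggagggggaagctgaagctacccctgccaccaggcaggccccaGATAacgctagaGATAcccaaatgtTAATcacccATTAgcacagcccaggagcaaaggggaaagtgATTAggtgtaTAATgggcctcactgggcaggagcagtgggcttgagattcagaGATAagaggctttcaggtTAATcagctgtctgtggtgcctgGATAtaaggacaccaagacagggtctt
Gast: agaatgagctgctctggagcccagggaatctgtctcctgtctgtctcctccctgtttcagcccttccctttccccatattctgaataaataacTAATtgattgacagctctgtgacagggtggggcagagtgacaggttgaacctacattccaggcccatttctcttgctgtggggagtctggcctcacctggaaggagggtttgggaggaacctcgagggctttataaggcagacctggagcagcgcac
Gcg: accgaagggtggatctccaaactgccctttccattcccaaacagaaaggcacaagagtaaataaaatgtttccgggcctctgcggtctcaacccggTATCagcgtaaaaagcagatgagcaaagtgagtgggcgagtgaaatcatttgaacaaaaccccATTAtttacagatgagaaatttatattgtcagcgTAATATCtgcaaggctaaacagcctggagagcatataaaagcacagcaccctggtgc
The Gip window held 4 GATA and 5 TAAT. The Gast window held 0 and 1, and the Gcg window 2 and 2. Of all 32851 promoters of that length, 53.6% held a GATA and 54.9% a TAAT, while 5.54% held 5 or more TAAT. Cck (2 and 0) and Nts (1 and 1) were searched in the same way. A match describes letters and is no evidence that a factor binds.

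The deposited labels divided 13362 cells into 8 types, and every one of them held an EYFP UMI. UMIs (unique molecular identifiers) count captured RNA molecules, and levels are given as CPM, the UMIs of a gene as a share of all UMIs of the summed cells. EEC, the enteroendocrine type, had 264 and 359 cells in the 2-week mice 1 and 2 and 295 and 290 in the 4-week mice 1 and 2, with 3571985 to 5065473 UMIs per mouse. A finer set of labels split nearly all of them (1207 of 1208) into Delta, ECL, EEC-Progenitor, Epsilon and Ppy+ cells. The deposited names of these labels carry the genes Sst, Tac1, Neurog3, Ghrl and Ppy, in that order. The ECL, Epsilon and Ppy+ labels had a UMI or more of every gene of their marker lists, and Delta of all but Ghsr, which was at 0. This is a low bar, and the lists hold genes that name the labels, so it is no test of them. The mice were separate animals whose p-values measure the spread between 2 animals per group. 1 library stood apart in ECL cells: the 6 islet beta cell markers summed to 48526 CPM in 2-week mouse 2 and to between 352 and 1338 CPM in the other mice. Of 21068 barcodes, 67 occurred in more than 1 library, none of them in cells with 10 or more UMIs of a hormone gene in both.

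4 of the 5 hormone genes sat in the enteroendocrine cells. EEC cells were 5.71% of all 21140 cells, yet held 88.5% of all Gip UMIs, 83.0% of Cck, 84.9% of Gast and 91.5% of Gcg. Within EEC the mean level over the 4 mice was 2643 ± 2135 CPM (SD, n = 4) for Gip, 617 ± 852 for Gast, 423 ± 516 for Gcg and 176 ± 62.6 for Cck. The next type for Gip, Acinar/MucinDuctal, reached 26.0 ± 33.2 CPM, and Acinar cells reached 5.98 ± 3.34 CPM. For Cck the next type was Tuft/EEC.Progenitor, at 121 ± 240 CPM, where a single cell of 2-week mouse 1 held 71 of the 75 UMIs. For Cck, Gast and Gcg the gap from EEC to the next type was within the larger SD, and for Gip beyond it. How the type labels were made is not given in the sources used here. Since they may rest on the same counts, these differences between types are a description.

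Few cells carried the messages. Of 1208 EEC cells, 200 held a Gip UMI, 178 a Cck UMI, 114 a Gast UMI and 22 a Gcg UMI. Cells with 10 or more UMIs of a gene, called producing cells from here on, numbered 115 for Gip, 51 for Cck, 41 for Gast and 15 for Gcg, and they held 99.5%, 87.3%, 98.7% and 99.9% of the EEC UMIs of those genes. Gcg was the most sharply divided of these 4 genes: its 15 producing cells held 38 or more UMIs each and the other 7 positive cells held 1 each. A single cell of 4-week mouse 1 with 3118 UMIs carried 33.3% of all Gast UMIs in EEC. The top cell carried 8.83% for Gip, 9.83% for Cck and 15.5% for Gcg.

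**Figure D1:**
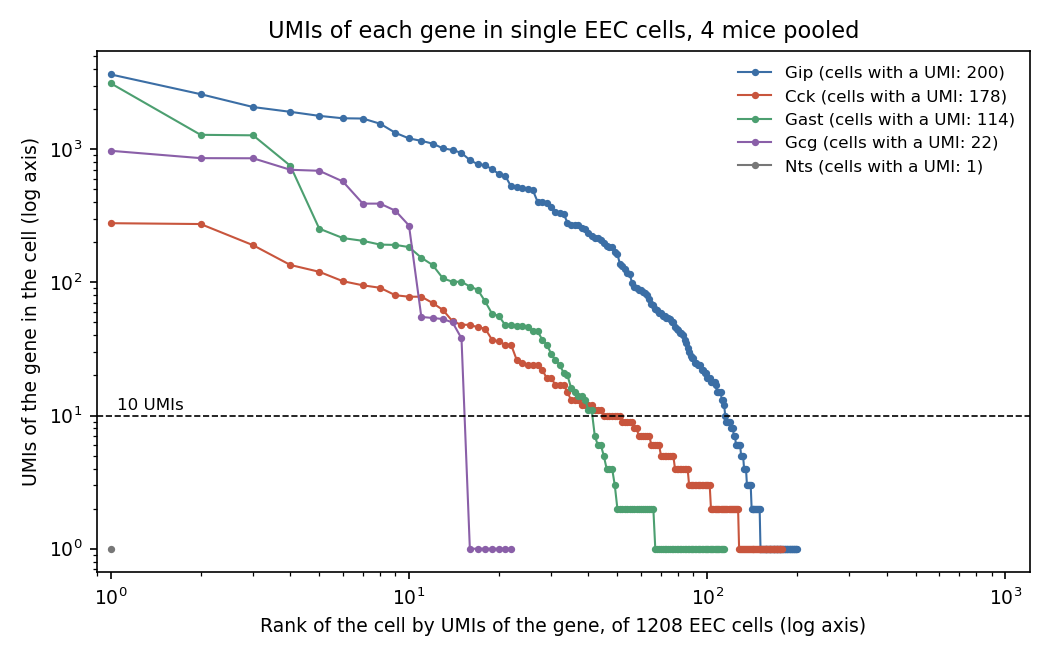
UMIs of Gip, Cck, Gast, Gcg and Nts in those of the 1208 EEC cells that held a UMI of the gene. Cells are ranked from highest to lowest for each gene, both axes are logarithmic, and a dashed line marks 10 UMIs. The curves of Gip, Cck, Gast and Gcg end at 200, 178, 114 and 22 cells, and Nts is 1 cell with 1 UMI. Gcg drops from 38 UMIs to 1 with no cell between.

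Free RNA in the droplets was measured in cells that should not make the hormones, the 2535 unlabelled cells with immune markers. Gip was at 4.86 CPM there and the other 4 genes at 1.45 CPM or less, with no producing cell among them. Among cells with 3000 UMIs or more, thinned to 3000, 12.9% of EEC and 1.55% of immune-marker cells were expected to hold a Gip UMI. Unthinned and over all cells, the shares were 17.2% and 2.87%. For Gcg the thinned shares were 1.45% and 0.142%. The producing cells rather than all positive cells are therefore counted below.

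Gip, the K cell incretin, was found in Ppy+ and ECL cells alike. In Ppy+ cells its level was 14322 and 5411 CPM in the 2-week mice and 3695 and 17652 CPM in the 4-week mice. In ECL cells it was 21533 and 503 CPM at 2 weeks and 3386 and 10865 CPM at 4 weeks. Neither pair of groups separated: the highest and the lowest ECL value both belonged to 2-week mice, and the lowest was in the mouse with the high beta markers. The means, 10269.8 ± 6777 CPM in Ppy+ and 9072 ± 9385 CPM in ECL (SD, n = 4), did not differ beyond that spread, and Ppy+ was the higher in 3 of 4 mice.

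The count of Gip-producing cells moved with the level. In ECL cells they were 51.2% and 7.04% of the cells of the 2-week mice and 26.1% and 29.8% of those of the 4-week mice. The exact 95% (Clopper-Pearson) intervals of the 2-week mice, 35.5% to 66.7% and 2.33% to 15.7%, did not touch. These intervals cover counting error only. Ppy+ cells were steadier, with 37.5%, 35.0%, 22.2% and 42.9% in the same order of mice. Delta cells, the somatostatin cells, held Gip at 409 ± 244 CPM with 11 producing cells, while Epsilon and EEC-Progenitor cells had 1 producing cell each.

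With all 4 mice and the filter on low counts, edgeR called no change in Gip between 2 and 4 weeks. In EEC cells the edgeR log2 fold change (4 weeks minus 2 weeks) was -0.04 (SE 1.57, adjusted p = 0.997). In ECL cells it was -0.61 (SE 2.26, adjusted p = 0.997 by edgeR), and it turned on either 2-week mouse. Without mouse 1 it was 3.78 (edgeR adjusted p = 0.907) and without mouse 2, which had few Gip cells, -1.57 (edgeR adjusted p = 1.6e-22), each in a fit that assumes the 1 remaining 2-week mouse to vary like the others. In Ppy+ cells it was 0.27 (SE 1.19, adjusted p = 0.987 by edgeR), and its direction turned without 2-week mouse 2 (-0.25) and without 4-week mouse 2 (-1.20). In Delta cells, where Gip stood at 388 and 347 CPM in the 2-week and 159 and 742 CPM in the 4-week mice, the difference was 0.30 (SE 0.95, adjusted p = 0.989 by edgeR). There the call and its direction turned on the 4-week mice: it was 1.01 without mouse 1 (edgeR adjusted p = 1.77e-04) and -1.18 without mouse 2 (edgeR adjusted p = 7.27e-04). With the top cell of each hormone gene left out of every mouse it was -1.99 (edgeR adjusted p = 0.883).

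Gcg, the proglucagon gene, was found in Ppy+ cells of the 4-week mice and in none of those of the 2-week mice. In Ppy+ cells it was at 0 CPM in both 2-week mice and at 6446 and 4443 CPM in the 4-week mice. The groups did not overlap: not 1 Gcg UMI was found among 592168 and 441914 UMIs of the 2-week Ppy+ cells, where 3 UMIs would have been 5.07 and 6.79 CPM. Over the groups, 6195 of 1111800 UMIs stood against 0 of 1034082. Set against 3 UMIs over the 2-week group, Gcg was 1921-fold higher at 4 weeks, and 1532-fold higher in the lower of the 4-week mice. These folds cover the counting of UMIs only. The message came in whole cells of 50 to 972 UMIs, and 1 such cell missed at 2 weeks would make the fold far smaller. They are therefore no lower bound for the cells or the mice.

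In the edgeR fit of Ppy+ cells, 10 of 6283 genes, 0.159%, were called, and 4 of the 5 hormone genes reached the filter on low counts. Gcg reached it only through the 4-week mice, so that a gene at 0 in the other group had to differ. Its adjusted p of 8.33e-07 and fitted log2 fold change of 14.60, which depends on the prior count, are therefore given as a description, and the UMIs per mouse carry the result. Among all genes tested there, 8.94% were higher in both 4-week mice than in both 2-week mice and 30.9% lower. Of the 4 hormone genes, Gip, Cck and Gast overlapped between the groups.

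Few cells held the Gcg message. Gcg-producing cells were 0 of 40 and 0 of 20 Ppy+ cells at 2 weeks, with upper 95% bounds of 8.81% and 16.8%. At 4 weeks they were 9 of 45 (20.0%, 95% interval 9.58% to 34.6%) and 4 of 35 (11.4%, 3.2% to 26.7%). Since the 2-week bounds lie within or near the 4-week intervals, the share is not firmly separated, and the level rests on these same cells.

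Each of these 13 cells held 50 to 972 Gcg UMIs, with a median of 390. Gcg was up to 5.97% of all the UMIs of a cell. All 13 held EYFP UMIs, between 1 and 5 each, as did every cell with a type label, which does not set them apart. Their median of 13503 UMIs per cell lay beside 13501 in the other 4-week Ppy+ cells. Of the 13, 11 also held 10 or more UMIs of Ppy, the pancreatic polypeptide gene. The other 2 had no Ppy UMI and 481 and 559 UMIs of Ghrl, which encodes ghrelin. Pyy, the peptide YY gene of intestinal L cells, was at 10 or more UMIs in all 13, as it was in all 140 Ppy+ cells.

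Ppy+ cells differed between the times in more than Gcg. Ppy itself stood at 33477 and 52071 CPM at 2 weeks and at 124661 and 102711 CPM at 4 weeks, a rise of 1.57 on the log2 scale (SE 0.23, adjusted p = 0.0471 by edgeR, and 0.184 with the spread estimated without robust weights). Ppy+ cells with 10 or more Ppy UMIs were 52.5% and 35.0% at 2 weeks and 75.6% and 74.3% at 4 weeks. Within these cells alone, Gcg-producing cells were 0 of 21 and 0 of 7 at 2 weeks (upper 95% bounds 16.1% and 41.0%) and 7 of 34 and 4 of 26 at 4 weeks (20.6% and 15.4%). Cells with 10 or more UMIs of Ghrl were the fewer at 4 weeks, at 51.1% and 51.4% of Ppy+ cells, against 87.5% and 85.0% at 2 weeks, and the part of this in the Gcg result was not tested. The bound of 2-week mouse 2 for Gcg lies above both 4-week shares, and that of 2-week mouse 1 above the lower of them. The cells of either 2-week mouse are therefore too few to set it apart from both 4-week mice. Pooled over mice, the counts were 0 of 28 cells at 2 weeks and 11 of 60 at 4 weeks. Because the mouse is the replicate, no interval is set on the pooled cells. The acinar marker sum (6 genes) in Ppy+ cells was 12157 and 32432 CPM at 2 weeks and 8707 and 5703 CPM at 4 weeks. Its part in the Gcg result was not tested, and Acinar cells themselves held Gcg at 0.52 ± 0.63 CPM (0.18 CPM without the top cell of each mouse).

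Alpha cell genes beside Gcg were also measured in Ppy+ cells. Ttr, a transthyretin gene high in alpha cells, was at 312 and 380 CPM in the 2-week and 286 and 183 CPM in the 4-week mice, so that both 4-week values lay below both 2-week values, as for 30.9% of genes. Irx1 and Irx2, alpha cell transcription factors, had 0 and 3 UMIs in all Ppy+ cells.

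**Figure D2:**
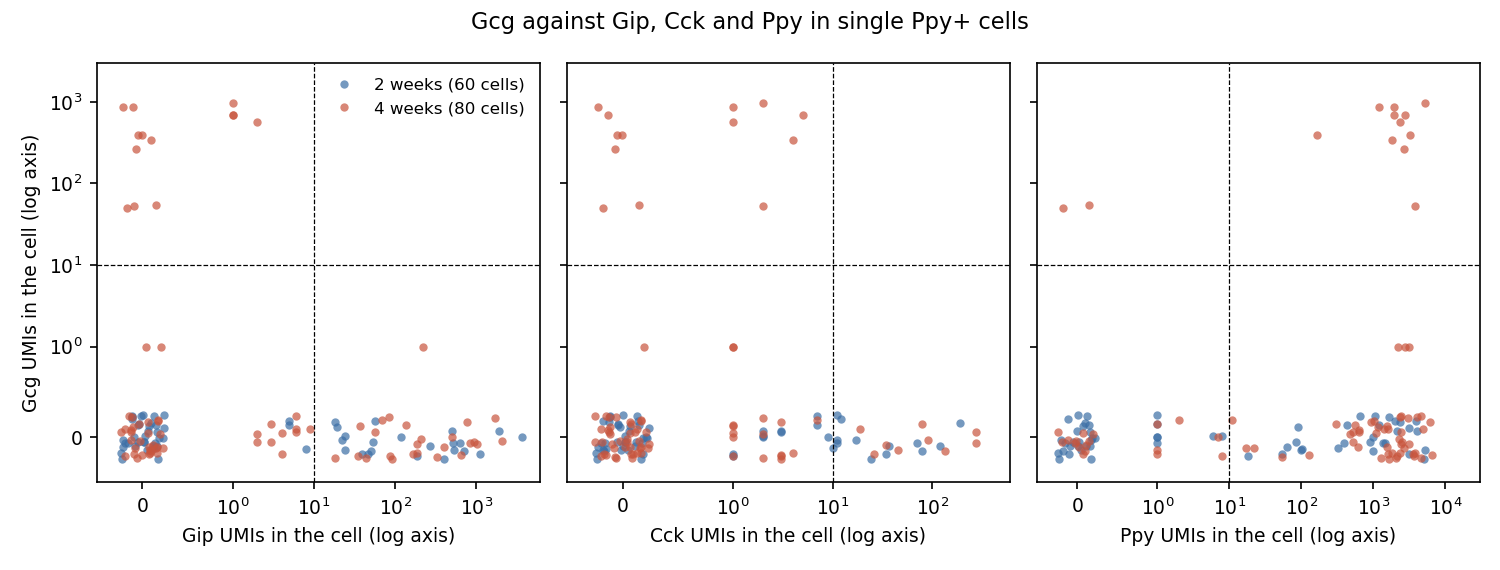
UMIs of Gcg against UMIs of Gip, Cck and Ppy in each Ppy+ cell, logarithmic axes with zeros jittered at the edge, 60 cells of 2-week mice and 80 of 4-week mice in different colours, dashed lines at 10 UMIs. The 13 Gcg-producing cells are all 4-week cells and none passes 10 UMIs of Gip or Cck, while 11 of them pass 10 UMIs of Ppy.

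Outside Ppy+ cells Gcg was rare at both times. 1 Epsilon cell of 2-week mouse 1 held 38 Gcg UMIs, the only typed producing cell before 4 weeks. It also held 268 Gip, 62 Cck, 24 Gast and 1480 Ghrl UMIs, the only Epsilon cell to produce Gip. 1 Epsilon cell of 4-week mouse 2 held 54 Gcg UMIs. In Acinar cells 1 cell produced Gcg: it lay in 4-week mouse 2, had 110246 UMIs in all, held 38 Gcg and 391 Ppy UMIs, and carried 52.1% of the Gcg UMIs of that type. In ECL cells no Gcg UMI was found in any of 217 cells, and the upper 95% bounds of the 4 mice, 5.06% to 8.22%, limit cells with a UMI at this depth. Over all EEC cells, where it too reached the filter only through the 4-week mice, Gcg was at 9.37 and 0 CPM at 2 weeks and 1063 and 619 CPM at 4 weeks, without an edgeR call (adjusted p = 0.986). Gcg-producing cells made up 0.379% and 0% of the EEC cells of the 2-week mice and 3.05% and 1.72% of those of the 4-week mice, for which a two-sided exact permutation test gave p = 0.333, the smallest it can give with 2 against 2.

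Gast, the gastrin gene, was held by ECL cells: they were 1.03% of all cells and held 81.7% of its UMIs. Its ECL level was 1514 and 8.34 CPM in the 2-week mice and 15811 and 2097 CPM in the 4-week mice. Both 4-week mice stood above both 2-week mice, as did 17.5% of all genes tested in ECL cells. The difference of 3.61 on the log2 scale (SE 3.1) was not called by edgeR (adjusted p = 0.992). The 2-week mouse at 8.34 CPM was again the mouse with 48526 CPM of beta cell markers. The part of that in the result was not tested. Without it the difference was 2.60 on the log2 scale with an edgeR adjusted p of 1.36e-33, on 1 remaining 2-week mouse. The size moved with each of the other mice and no call was made: it was 10.00 without 2-week mouse 1 (edgeR adjusted p = 0.893), 1.48 without 4-week mouse 1 and 4.42 without 4-week mouse 2 (edgeR adjusted p = 0.999 each).

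The Gast level rested on few cells in each mouse. Gast-producing cells were 18.6% and 0% of ECL cells at 2 weeks and 26.1% and 22.8% at 4 weeks, so that the 4-week mouse with the highest level had a share close to that of its neighbour. The cell with 3118 UMIs held 43.8% of the EEC Gast UMIs of that mouse and its top 3 cells 79.6%. Without its top cell the ECL level of that mouse was 9159 CPM. In Ppy+ cells Gast was at 96.4 ± 107 CPM with 4 producing cells. The ECL mean was above it by less than the spread of the mice, and ECL cells were the higher in 3 of 4.

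Cck, the cholecystokinin gene, had producing cells in all 5 subtypes. Its level in Ppy+ cells was 664 and 609 CPM at 2 weeks and 1278 and 474 CPM at 4 weeks. The 4-week mice held both the highest and the lowest value. The Ppy+ mean of 756 ± 357 CPM was above Epsilon cells, at 95.3 ± 89.7 CPM, by more than the spread and in 4 of 4 mice. ECL cells (83.2 ± 62.3 CPM), EEC-Progenitor cells (81.3 ± 43.9) and Delta cells (68.9 ± 56.7) followed, with no gap beyond the spread between neighbours. In EEC-Progenitor cells 10 cells produced Cck, where 1 produced Gip and none Gast or Gcg.

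**Figure D3:**
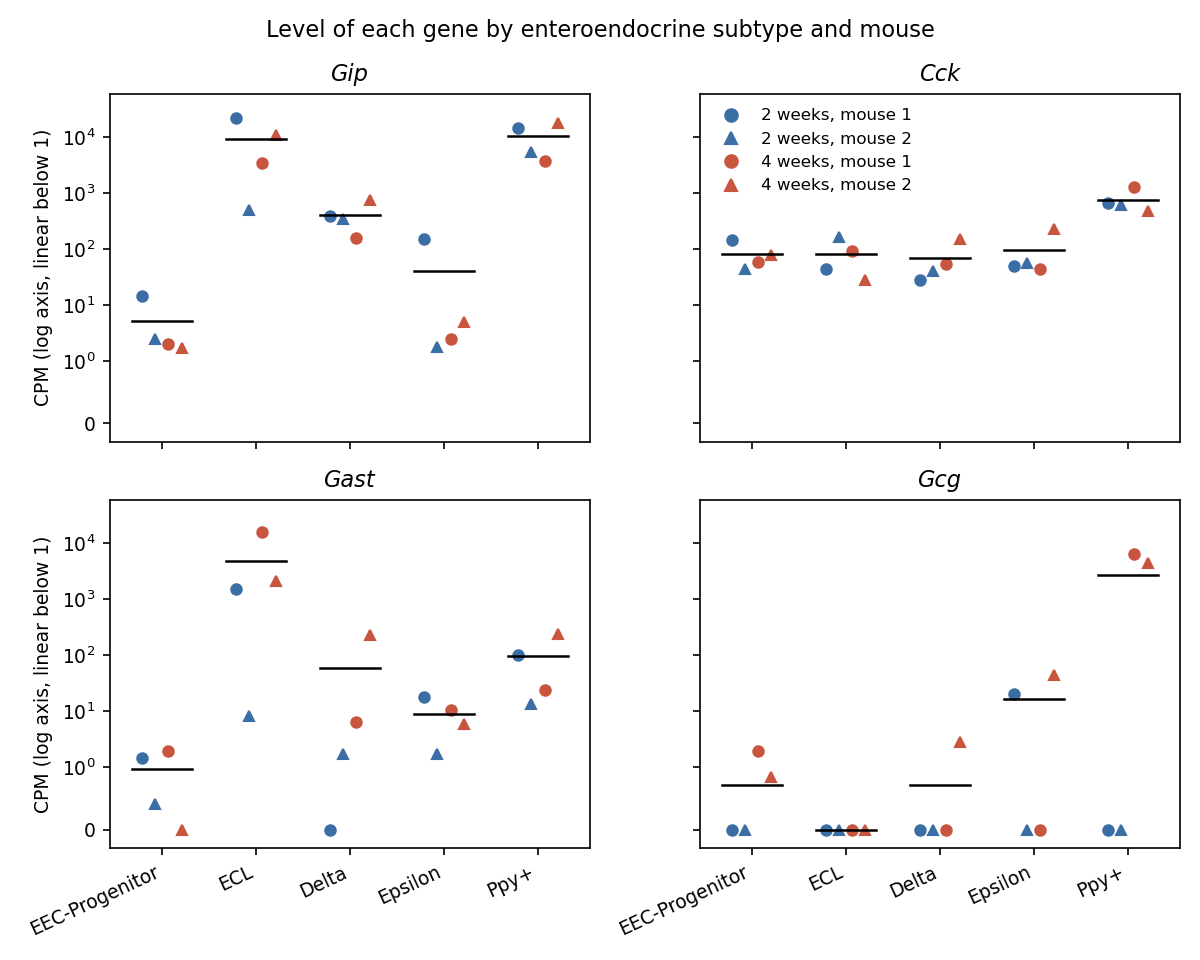
CPM of Gip, Cck, Gast and Gcg in Delta, ECL, EEC-Progenitor, Epsilon and Ppy+ cells, 1 point per mouse with 2-week and 4-week mice in different colours, a black bar for the mean of 4 mice, and a log axis that is linear below 1 CPM. Gip is high in both ECL and Ppy+ cells, Gast in ECL cells (8.34 to 15811 CPM), Cck highest in Ppy+ cells, and Gcg high only in the 4-week Ppy+ points.

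With all 4 mice and the filter, edgeR called no change in Cck in any subtype. Over all EEC cells it was at 135 and 123 CPM at 2 weeks and 261 and 186 CPM at 4 weeks. The groups did not overlap, and 8.85% of all genes tested in EEC cells were likewise higher in both 4-week mice. The edgeR difference for Cck was 0.88 on the log2 scale (SE 0.22, unadjusted p = 0.00816, adjusted p = 0.986), and with no filter on low counts its adjusted p was 6.89e-05. In Delta cells Cck went from 28.0 and 41.2 CPM to 53.9 and 152 CPM, which 17.4% of genes matched in direction without overlap (edgeR log2 difference 1.59, SE 0.43, adjusted p = 0.566). That call was made with no filter (edgeR adjusted p = 0.00129) and with each of the other 3 mice left out in turn (edgeR adjusted p 2.95e-06 to 0.0394), but not without 4-week mouse 2, where the difference was 0.66. It rests on 3 producing cells, 1 of which held 48 UMIs, 44.0% of all Cck UMIs of Delta cells. Without the top Cck cell of each mouse the mean level was 11.7 CPM, and with the top cells left out Cck did not reach the filter.

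In the remaining subtypes the Cck values of the groups overlapped, and which mouse was left out set the direction or the call in all 4 of them. In ECL cells Cck was at 43.7 and 167 CPM at 2 weeks and 93.7 and 28.4 CPM at 4 weeks. The edgeR difference there was -0.98 (SE 1.14, adjusted p = 0.992), called without 2-week mouse 1 (-1.56, adjusted p = 7.62e-05) and 0.45 without 2-week mouse 2. In EEC-Progenitor cells the edgeR difference was -0.33 (adjusted p = 0.988). It was called without 2-week mouse 2 (-1.09, edgeR adjusted p = 2.71e-04) and was 0.61 without 2-week mouse 1. There 20.2% of genes were higher and 14.6% lower in both 4-week mice. In Epsilon cells the edgeR difference in Cck was 1.47 (adjusted p = 0.999), called without 4-week mouse 1 (2.19, edgeR adjusted p = 0.0139) and 0.073 without 4-week mouse 2. The values of all 3 hormone genes tested there overlapped, where 3.87% of genes were higher and 28.8% lower. In Ppy+ cells the edgeR difference was 0.64 (SE 0.62, adjusted p = 0.920). It was 1.21 with an edgeR adjusted p of 1.64e-04 without 4-week mouse 2 and -0.28 without 4-week mouse 1.

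Nts, the neurotensin gene, was all but absent from labelled cells. It had 1 UMI in the 1208 EEC cells, in an ECL cell of 4-week mouse 2, and did not reach the filter for any test. The EEC levels were 0, 0, 0 and 0.28 CPM, where 3 UMIs would have been 0.592 to 0.840 CPM.

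The genes divided the cells differently in each subtype. Of 140 Ppy+ cells, 40 produced Gip alone, 16 Cck alone, 13 Gcg alone and 2 Gast alone, 5 produced Gip and Cck, 1 Gip and Gast, 1 produced 3 of them, and 62 none. Not 1 of the 13 Gcg-producing cells also produced Gip, Cck or Gast: they held at most 2 Gip, 5 Cck and 0 Gast UMIs. In return, the 47 Gip-producing cells held at most 1 Gcg UMI and the 22 Cck-producing cells none. The labels may rest on these counts, and with 13 cells the lack of overlap is given as a description.

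In ECL cells Gip and Gast occurred together. Of 217 ECL cells, 35 produced Gip alone, 19 Gip and Gast, 12 Gast alone and 3 Cck alone, and 145 none. Of the rest, 1 produced Gip and Cck, 1 Cck and Gast, and 1 produced 3 or more of the genes. In Epsilon cells 1 cell produced Cck and Gast without the others. Over all enteroendocrine subtypes 25 cells produced both Gast and Gip, 61.0% of the 41 Gast-producing and 21.6% of the 116 Gip-producing cells. Cells without any of the hormones were 64 of 71 in 2-week mouse 2, and 18 of 43, 28 of 46 and 35 of 57 in the other mice.

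**Figure D4:**
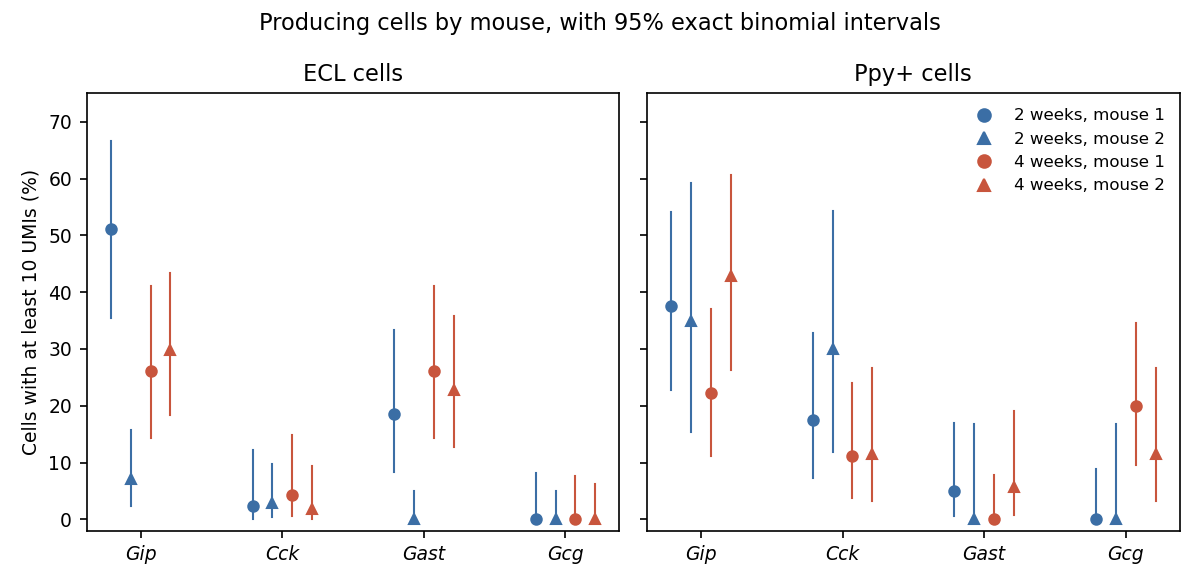
Percent of ECL and Ppy+ cells with 10 or more UMIs of each hormone gene, 1 point per mouse with its 95% exact binomial interval, 2-week and 4-week mice in different colours. Gcg is at 0 in both 2-week mice and at 20.0% and 11.4% in the 4-week mice in Ppy+ cells, while Gip in ECL cells ranges from 7.04% to 51.2% within the 2-week mice.

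Few genes of 5 further lists, the peptides, enzymes, factors, sensors and receptors around these hormones, were called between the times. In EEC cells edgeR called 0 of 11869 genes, 478 had an unadjusted p under 0.05, and DESeq2 called 14. By edgeR no gene of the lists was called there: 0 of 9 tested other gut and islet peptide genes, 0 of 14 processing and granule genes, 0 of 23 enteroendocrine transcription factors, 0 of 7 nutrient sensing genes and 0 of 5 receptors. Of these, Ppy was called by other fits: its edgeR log2 difference of 2.03 had an adjusted p of 0.317, while the adjusted p was 1.16e-11 by DESeq2 and 1.63e-15 by edgeR with no filter. In ECL, Delta, Epsilon and EEC-Progenitor cells edgeR called no gene of any list, where 0.0816%, 0.0154%, 0% and 0.0453% of all genes were called. Named are up to 3 called genes in each direction that averaged 10 CPM or more. In ECL cells, where 2 genes were called higher and 4 lower, they were Ttr and Tspan8 (higher at 4 weeks) and Rnase1, Nupr1 and the acinar granule gene Sycn (lower), with Ttr at 210 and 217 CPM at 2 weeks and 569 and 616 CPM at 4 weeks. In Delta cells it was Pga5 (higher), and in EEC-Progenitor cells Glud1 (higher) and Cym, Reg3b and Gm26917 (lower). Without robust weights edgeR called 0 genes in ECL cells (smallest adjusted p = 0.0893) and 0 higher genes in EEC-Progenitor cells, so that all 5 named ECL calls and that of Glud1 were lost. With the top cells left out, 0 genes were called in Delta cells.

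In Ppy+ cells, where 0.159% of all genes were called (10 of 6283), the calls beside Gcg, which entered the fit only through the 4-week mice, held 2 genes of the lists. These were Ppy among 5 tested of 14 other peptides and Hhex among 18 tested of 24 transcription factors. Hhex, which maintains delta cells, stood at 201 and 172 CPM at 2 weeks and 47.9 and 28.9 CPM at 4 weeks. It fell by 2.08 on the log2 scale (SE 0.27, adjusted p = 0.00583 by edgeR, 0.0709 without robust weights). None of 13 processing genes, 7 nutrient sensing genes and 2 receptors was called. Beyond the lists, the strongest calls included Pga5 and Selenop (higher at 4 weeks) and the acinar genes Cpb1 and Reg2 (lower). Without robust weights Gcg was the 1 gene edgeR called, and these calls were lost with those of Ppy and Hhex. Cpb1 went from 748 and 1032 CPM to 334 and 307 CPM beside the acinar marker sum.

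The receptors did not share 1 pattern over the cell types. Cckar, the cholecystokinin receptor that caerulein acts on, was at 240 and 259 CPM in Acinar cells at 2 weeks and 214 and 164 CPM at 4 weeks, and at 405 ± 32.6 CPM in Acinar.Prolif cells. In EEC cells, which hold the Cck message, it was at 25.9, 20.3, 10.3 and 8.12 CPM. The 4-week mice were the lower, which 23.6% of genes in EEC cells also were, and edgeR made no call (log2 difference -1.24, SE 0.26, adjusted p = 0.802). Gipr, the receptor of Gip, was an EEC message instead, at 17.3, 20.1, 21.0 and 21.3 CPM, against 1.69 ± 3.39 CPM in the next type. Gcgr, the glucagon receptor, was likewise highest in EEC cells, at 4.02 ± 0.63 CPM against 0.23 ± 0.25 CPM in the next type. Glp1r, the GLP-1 receptor, was highest in MucinDuctal cells, at 65.6 ± 16.1 CPM, and at 8.42 CPM in EEC. Cckbr, the gastrin receptor, had 4 UMIs in all EEC cells. Sort1, a sorting receptor that also binds neurotensin, was at 60.3 CPM in EEC and highest in Tuft cells, at 214 ± 29.2 CPM. Glp2r and Ntsr1 had no UMI in any typed cell.

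Producing cells were compared with the other cells of their label over the same lists. The following levels were summed over the cells and, because cells were chosen by hormone UMIs within a label that may rest on the same counts, carry no test. The genes named were chosen after their values were seen, and counts cover genes at 10 CPM or more. In the Gcg-producing Ppy+ cells 2 of 13 processing and granule genes were higher and 6 lower in both mice, beside 17.2% and 38.8% of all 7713 genes. Pcsk2, which cuts proglucagon to glucagon, was at 2473 CPM in the 13 Gcg-producing cells and 1542 CPM in the other 67 Ppy+ cells of 4-week mice, higher in 2 of 2 mice. Pcsk1, which cuts it to GLP-1, was at 188 and 205 CPM. Chgb, a granule protein gene, was lower in both mice (838 against 1997 CPM), as was Ghrl (7801 against 16746 CPM).

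The Cck-producing Ppy+ cells had 2 of 14 such genes higher and 2 lower in all 4 mice, beside 11.6% and 5.56% of all 8185 genes. Pcsk2 was at 681 CPM in the 22 cells and 1407 CPM in the 118 others, and lower in 4 of 4 mice. Cpe, the carboxypeptidase that trims cut prohormones, was higher in 4 of 4 (1931 against 971 CPM), as were Pam, the amidating enzyme that finishes cholecystokinin and gastrin (732 against 465 CPM), and the transcription factors Isl1 (1105 against 645 CPM) and Pax6 (709 against 373 CPM). Of 18 transcription factors, 4 were higher and 2 lower in all 4 mice. Ppy was at 20421 against 91163 CPM, lower in 4 of 4. Only 4 of the 22 held 10 or more Ppy UMIs, where 33 of the 47 Gip-producing Ppy+ cells did.

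In ECL cells the Gip-producing cells were set beside the other cells of the label. Tac1, a substance P precursor, was at 201 CPM in 56 cells and 682 CPM in the 161 others. Fev, a transcription factor of serotonin cells, was at 150 against 413 CPM, and Neurog3, the endocrine progenitor factor, at 3.19 against 120 CPM. Each was lower in 4 of 4 mice. Cpe (1417 against 931 CPM), Scg5, the chaperone of Pcsk2 (1310 against 635 CPM), and Ffar4, a fatty acid receptor of gut hormone cells (161 against 89.3 CPM), were higher in 4 of 4. The acetate receptor Ffar2 was at 38.3 against 244 CPM, lower in 4 of 4. Of 4 nutrient sensing genes, 1 was higher and 1 lower in all 4 mice. The 33 Gast-producing ECL cells differed in the same directions for Cpe, Scg5, Tac1 and Ffar2, in 3 of the 3 mice that had them, where 9.0% of all genes were higher and 25.1% lower. Ffar4 was at 142 against 101 CPM there, higher in 1 of 3. Of the 33, 19 also produced Gip without Cck and 1 more produced both Gip and Cck, so the comparisons share cells. In the Gip-producing ECL cells 12 of 21 transcription factors were lower and 0 higher in all 4 mice, and 3 of 13 processing genes were higher and 1 lower. Of all 9053 genes there, 18.6% were lower and 5.95% higher. Median UMIs per cell were 10576 in the Gip-producing cells and 10745 in the others.

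Neurog3 was also counted in the producing cells. At 10 or more UMIs it was found in 8 of the 52 Cck-producing enteroendocrine cells, 2 of the 116 Gip-producing, and none of the 41 Gast-producing and 15 Gcg-producing cells. 7 of the 8 were among the 10 Cck-producing EEC-Progenitor cells, beside 267 of the 381 other EEC-Progenitor cells (70.1%). The difference between the hormones was not tested.

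Across 32 profiles (mouse by subtype, 9 subtypes, at least 20 cells each), genes among the 3 whose log2(CPM + 1) pattern was most like that of each hormone were listed by Pearson's r. The profiles share mice and labels, so r is given without a p. For Gip they were Cltrn (0.942) and Shisal2b (0.921), for Cck Lpl (0.961), Mt3 (0.944) and Pcsk1 (0.923). For Gast they were Il1r1 (0.9), Cacna2d3 (0.888) and Smc6 (0.879), and for Gcg Kcnk9 (0.787) and Edn3 (0.710). Pcsk1, the convertase, was at 179 ± 29.6 CPM in Ppy+ cells, 137 ± 30.2 in Epsilon and 74.8 ± 16.2 in ECL, an even level beside that of Cck. Kcnk9, a potassium channel gene, was at 1.69 and 2.26 CPM in Ppy+ cells at 2 weeks and 11.2 and 22.7 CPM at 4 weeks. The 2-week values lay under the 5.07 and 6.79 CPM that 3 UMIs would have been, and the difference was not tested here.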

How the data were processed

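Single-cell RNA (10x Genomics 3′) was read in 4 libraries, 1 mouse each. The deposited tables hold raw UMI counts per gene and cell; per the submitters' processing notes they were made with Cell Ranger 4.0.0 and Seurat 3.2.3 on mm10. Cell labels are the authors' own, from deposited label files, and how they were assigned is not given in the sources used here. The EYFP-positive and tuft/enteroendocrine tables hold the same counts as the merged table. Outside the thinned shares and the fits with top cells left out, no cell was removed, and no doublet caller was run. Counts were summed per mouse and label, and 4 weeks was compared with 2 weeks in R 4.3.3 with edgeR 4.0.16 (quasi-likelihood, robust, TMM, filterByExpr; Benjamini-Hochberg over all genes tested, threshold 0.05) wherever each mouse had 20 cells. DESeq2 1.42.0, RLE scaling, no filter, no robust weights, the top cells left out and each mouse left out were alternatives. CPM is a share of summed UMIs. Thinning gave the expected share of positive cells at 3000 UMIs per cell and left out cells with fewer. Shares of all EEC cells were compared by an exact permutation test, whose smallest p with 2 against 2 is 0.333. The edgeR fit was also run on simulated counts, in which every gene had the same set spread between mice. Hormone genes that varied more between mice of a group are not covered by it.

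The hormone genes and gene lists were chosen with earlier results of these data known. Named were these lists, up to 3 called genes per direction and label at 10 CPM or more, and the 3 genes most like each hormone gene; a few genes under this rule are not reported here. Islet, acinar and other marker lists served to describe the labels. Genes differ in 3′ capture, so levels of different genes are compared only loosely. Whether a type held fewer producing cells or less RNA per cell cannot be told apart from summed levels alone, so cells are counted beside them.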

Additional observations from a re-analysis of the deposited data

Results flagged for a closer look

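Hormone message also lay in cells that the deposited labels leave out. Of 7778 unlabelled cells, 243 held endocrine markers (5 or more UMIs), and there Gip averaged 870 CPM (40.4 to 1970 CPM over the 4 mice), against 4.86 CPM in unlabelled immune-marker cells, with 24 producing cells. Gast averaged 209 CPM there (1.37 to 595 CPM) against 1.45 CPM, with 8 producing cells. Cck averaged 29.4 CPM (16.8 to 56.9 CPM) against 0.0543 CPM, with 4 producing cells. A single cell held 41.9% of these Gip UMIs, 45.2% of Gast and 44.4% of Cck, and without the top cell of each mouse the means were 317, 104 and 10.5 CPM. Gcg averaged 142 CPM there, from 0 to 568 CPM, nearly all of it in 4-week mouse 2, where 1 cell held 406 UMIs. EYFP was rare among unlabelled cells (612 of 7778), and 12 of 27 unlabelled Gip-producing, 0 of 8 Gast-producing, 5 of 5 Cck-producing and 1 of 2 Gcg-producing cells held an EYFP UMI, so the descent of the others from acinar cells is not shown. Nts reached 10 UMIs in 2 cells of the series, both unlabelled and both from 2-week mouse 2, with 13 and 12 UMIs in cells of 60649 and 22404 UMIs, and neither held a UMI of the other hormone genes.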

How the results depend on the processing

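No paired analysis was possible because the mice of the 2 times were separate animals and the labels give no pairing. In fits with 1 mouse left out the lone mouse of a group is assumed to vary like the others. Of 92 other alternatives of the named fold changes, 86 kept direction and side of the threshold, 2 lost the call (Ppy and Hhex without robust weights), 2 gained it (Cck in EEC and Delta cells with no filter) and 2 reversed with the top cells left out (Cck in EEC-Progenitor cells, 0.44, and Gip in Delta cells, -1.99). Of 76 fits with a mouse left out, 52 kept both, 10 gained a call and 14 reversed. The reversals were Gip in EEC cells (-1.29 to 2.23), in ECL cells (-1.66 to 3.78), in Ppy+ cells (-1.20 to 1.12) and in Delta cells (-1.18 to 1.01), Gast in Epsilon (-1.02 to 2.59) and Ppy+ cells (-1.13 to 3.36), Gcg in Epsilon cells (-7.11 to 7.84), and Cck in Ppy+ (-0.28 to 1.21), ECL (-2.03 to 0.45) and EEC-Progenitor cells (-1.09 to 0.61). Counts of called genes moved as follows, and the cause was not tested. By DESeq2 they were 14 in EEC, 7 in EEC-Progenitor, 3 in ECL, 2 in Delta and 1 in Epsilon cells (by edgeR 0, 4, 6, 1 and 0). With no filter they were 74, 50, 54, 24 and 22, and 60 in Ppy+ cells (10 with it). Without robust weights they were 0 in ECL and 1 in Ppy+ cells, and with the top cells left out 0 in Delta and 6 in Ppy+ cells. With a mouse left out they were 0 to 366 in EEC, 12 to 195 in EEC-Progenitor, 6 to 155 in ECL, 29 to 50 in Delta, 0 to 204 in Epsilon and 39 to 141 in Ppy+ cells, each highest without 2-week mouse 1. The share of EEC cells producing Gip (4 weeks minus 2 weeks, percentage points) was -0.21 (exact permutation p = 1), 0.201 at 20 UMIs, 1.28 when thinned, and -6.73 to 6.31 with a mouse left out. For Cck it was 0.0556 (exact permutation p = 1), -0.191 at 5 UMIs, -0.128 over the enteroendocrine subtypes, and -0.494 to 0.605. For Gast and Gcg it was 3.05 and 2.20 (exact permutation p = 0.333 each), and 0.968 to 5.13 and 1.53 to 2.86 with a mouse left out. Depth limits shares of positive cells: for Cck in EEC cells 14.7% became 8.78% at 3000 and 6.47% at 1500 UMIs, in Ppy+ cells 39.0% became 26.2% and 20.5%, and for Gast in EEC cells 9.80% became 4.85% at 1500 UMIs. Thinned shares leave out cells with fewer UMIs than the depth named.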
